A study of Homo sapiens with 5 samples.

Results

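The genes described here build, start and run the DNA replication fork, and 47 of them, listed by symbol, were found among the 58174 genes of the deposited expression table. The list holds the origin recognition complex, licensing factors, the MCM2-7 helicase, its CDC45 and GINS partners, origin firing factors, the replicative polymerases, RPA and lagging strand enzymes, fork protection proteins, nucleotide supply enzymes and UHRF1. Each symbol matched 1 row, and all 47 had a mean of at least 1 TPM (transcript abundance scaled for gene length and library total), the filter for testing.

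RNA from Ishikawa cells, a line established from human endometrial carcinoma, was sequenced in 5 libraries. A lentiviral short hairpin RNA silenced LINC00958, a long non-coding RNA, in 3 of them (sh-LINC00958), and 2 came from cells with the negative control (sh-NC). The protocol given for all 5 libraries describes lentiviral infection and then puromycin at 2.5 µg/ml from 72 h on, and neither the number nor the sequence of the hairpins is given in the sources used here. No label states that a group's libraries were grown as separate cultures, so the p-values describe the spread among these 5 libraries, which may be technical. LINC00958 itself measured 67.2, 67.1 and 58.4 TPM in sh-LINC00958 and 119 and 137 TPM in sh-NC, which is 50.04% of the control mean (log2 fold change -0.99 ± 0.106, SE; limma adjusted p = 0.0119). All 8 endometrial epithelial markers were at 1 TPM or more in every library, and the 6 blood cell markers summed to 0.494 to 0.839 TPM. The 6 kidney line and neural markers summed to 3.22 to 4.22 TPM in sh-LINC00958 and 2.03 to 2.23 TPM in sh-NC, almost all of it NES, with NEFL, NEFM and PAX2 at 0. The 4 endothelial markers summed to 4.39 to 5.89 and 6.46 to 6.88 TPM (KDR at 0), and the 6 fibroblast and stromal markers to 5.31 to 5.87 and 4.95 to 5.10 TPM, mostly COL1A1, with DCN at 0. Among the epithelial markers KRT8, KRT18 (341 to 343 against 246 and 258 TPM) and KRT19 lay above both controls in every silenced library, and EPCAM (399.6 to 436 against 504 and 492 TPM), PAX8 and SOX17 below. Their part in the results was not tested. TPM keeps no sequencing depth, so the depth is unknown and each level depends on the library's remaining RNAs.

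Before a cell copies its DNA, the origin recognition complex (ORC) marks start sites, and CDC6 and CDT1 load the MCM2-7 ring onto them, a step called licensing that geminin (GMNN) restrains. In S phase the kinase CDC7 with its activator DBF4 and the adaptor proteins TOPBP1 and TICRR add CDC45 and the GINS complex to the ring, which makes the active helicase. Polymerase alpha-primase then starts each strand, polymerases delta and epsilon extend it, and ribonucleotide reductase supplies the nucleotides. Many of these genes are known targets of E2F transcription factors, and their transcripts rise towards S phase in cycling cells.

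The promoters of members were searched for E2F motifs and the CCAAT box, since replication genes are known for sharing them. RefSeq promoter windows (GRCh38.p14) were found for 41 of the 47 members, 58 windows in all, and the 250 bases before each start were read on both strands. Any of 3 E2F motifs (TTTGGCGC, TTTCGCGC or TTTCCCGC) was present in 15 of the 58 windows (25.9%), against 2.32% of all 35116 windows. CCAAT was present in 55.2% of the members' windows and 32.01% of all. TTTGAA, the core of the element bound at mitotic genes, was present in 3.45% and 13.3%. Of members whose levels did not overlap between groups, 5 of 12 with sh-LINC00958 above sh-NC and 3 of 16 with sh-LINC00958 below had an E2F motif in a window, and so did 6 of 13 whose groups overlapped. A match describes the letters only. The 150 bases before the start are printed for the 3 members that passed the test (ORC3, ORC4 and GINS1), for ORC1, whose levels lay on the other side of the control from those of most ORC subunits, and for MCM6, which had 3 E2F matches and levels that overlapped between groups. Capitals mark E2F motifs and CCAAT, or their reverse complements. In MCM6 a pair of E2F motifs overlap each other. ORC4 has a second window, which held neither kind of motif in its last 150 bases. The windows are chr6:87589985-87590134 (plus strand) for ORC3, chr2:148021552-148021701 (minus) for ORC4, chr20:25407523-25407672 (plus) for GINS1, chr1:52404424-52404573 (minus) for ORC1 and chr2:135876444-135876593 (minus) for MCM6.
ORC3: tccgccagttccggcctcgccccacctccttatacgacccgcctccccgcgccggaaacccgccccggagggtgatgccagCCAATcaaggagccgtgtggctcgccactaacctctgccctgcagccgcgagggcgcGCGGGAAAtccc
ORC4: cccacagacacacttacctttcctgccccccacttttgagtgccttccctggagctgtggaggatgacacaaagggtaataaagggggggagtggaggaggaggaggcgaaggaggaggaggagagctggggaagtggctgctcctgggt
GINS1: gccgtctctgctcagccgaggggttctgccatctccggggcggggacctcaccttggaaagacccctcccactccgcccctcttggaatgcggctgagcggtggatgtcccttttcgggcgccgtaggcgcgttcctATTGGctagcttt
ORC1: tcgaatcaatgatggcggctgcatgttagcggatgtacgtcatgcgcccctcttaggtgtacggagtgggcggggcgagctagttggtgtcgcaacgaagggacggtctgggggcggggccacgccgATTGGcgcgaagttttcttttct
MCM6: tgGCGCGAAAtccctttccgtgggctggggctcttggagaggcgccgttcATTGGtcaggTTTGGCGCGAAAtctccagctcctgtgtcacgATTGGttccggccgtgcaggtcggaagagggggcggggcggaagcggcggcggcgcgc

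Replication gene transcripts as a whole were close to their control level when LINC00958 was silenced. The 47 members summed to 3596, 3678 and 3456 TPM in sh-LINC00958 and 3676 and 3825 TPM in sh-NC, so the groups overlapped and the silenced mean was 95.4% of the control mean. Of the 47, 3 fell (ORC3, ORC4 and GINS1) and none rose at an adjusted p of 0.05 in limma, and at an unadjusted p under 0.05 there were 12 lower and 7 higher. The 3 that fell are 6.38% of the members, near the 5.68% of all 17049 genes tested that were called lower, and 4.12% of all genes were called higher (9.8% in either direction). The median log2 fold change was -0.05 over members and 0.0014 over all genes tested. No member differed by 1 or more on the log2 scale, against 2.44% of all genes, and 5 members, all lower, differed by at least 0.5, against 18.3%. The members' median standard error was 0.0936 against 0.148 over all genes, and their mean levels ran from 18.4 to 235 TPM against a median of 15.9 TPM over all genes tested. The 95% interval of the fold change lay inside 1.5-fold in both directions for 40 members and inside 2-fold for 45. The exceptions to the latter were DBF4 and GINS4.

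Small differences separated the groups in both directions. In bulk RNA, fewer cells in S phase and less RNA per cell cannot be told apart. In 18 members every sh-LINC00958 library was below both sh-NC libraries, in 14 every one was above, and in 15 the groups overlapped. Non-overlapping groups thus made up 68.1% of members and 49.9% of all genes tested (25.5% below and 24.4% above). The plot of levels by library shows how narrow most of these gaps were.

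**Figure D1:**
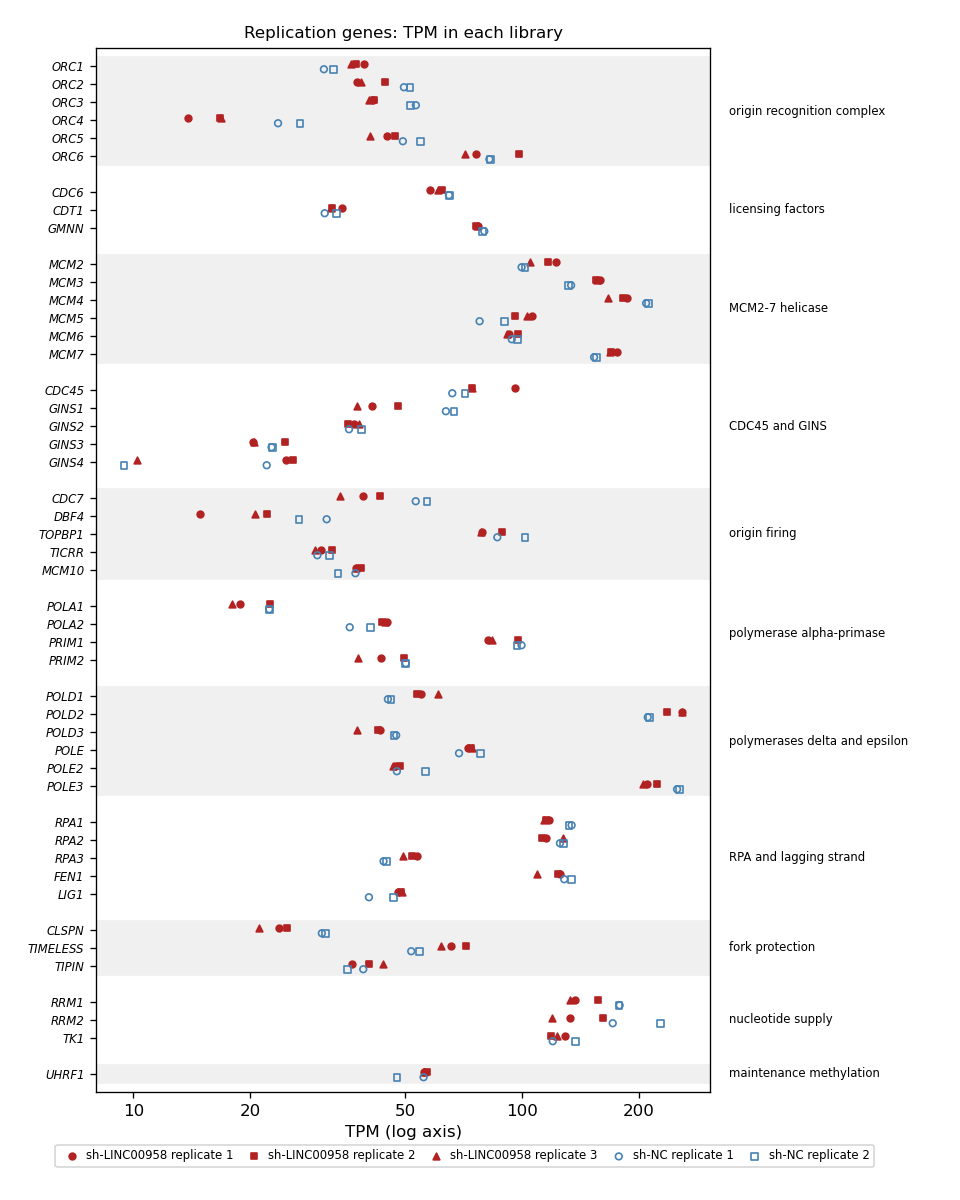
TPM of each replication gene in each library on a log axis, grouped by role; filled red symbols are the 3 sh-LINC00958 libraries and open blue symbols the 2 sh-NC libraries. ORC4, GINS1 and CDC7 show clear gaps with sh-LINC00958 below, MCM3 and POLD2 small gaps with sh-LINC00958 above, and GINS4 splits within both groups.

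Among the 6 ORC subunits, ORC3 and ORC4 fell, and ORC1, ORC2, ORC5 and ORC6 did not pass. ORC4, an ATPase-fold subunit of the ring (chromosome 2, 147930397 to 148021604 on GRCh38, minus strand), measured 13.8, 16.7 and 16.8 TPM in sh-LINC00958 and 23.6 and 26.9 TPM in sh-NC. Its groups did not overlap, and the log2 fold change was -0.65 ± 0.130 (SE; limma adjusted p = 0.0379). ORC3, a core subunit (chromosome 6, 87590067 to 87667453, plus strand), measured 41.4, 41.5 and 40.4 TPM against 53.3 and 51.6 TPM. The ORC3 libraries were tight within each group, with a log2 fold change of -0.34 ± 0.0777 (SE; limma adjusted p = 0.0480). ORC2 (-0.33, limma adjusted p = 0.0964) and ORC5 (-0.23, adjusted p = 0.186) were also below the controls in every sh-LINC00958 library. ORC1, a subunit whose protein level is known to vary through the human cell cycle, measured 39.1, 37.5 and 36.3 TPM against 30.9 and 32.7 TPM. All 3 ORC1 values lay above both controls (log2 fold change 0.23, with 95% limits of 0.021 to 0.45 and limma adjusted p = 0.137). ORC6, the most abundant subunit at a mean of 82.1 TPM, ranged from 71.2 to 97.9 TPM in sh-LINC00958 and spanned both controls at 82.4 and 82.8 TPM.

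The highest and lowest ORC subunits were further apart in the silenced cells. ORC6 spanned its controls, so this gap mostly restates the lower ORC4 level and adds no further result. With the GC and length trend removed, as described below, the ORC4 fold was -0.23 (limma adjusted p = 0.318). ORC6 was the highest and ORC4 the lowest subunit in all 5 libraries, and the TPM ratio of ORC6 to ORC4 was 5.52, 5.85 and 4.24 in sh-LINC00958 and 3.50 and 3.08 in sh-NC. With 3 libraries against 2, an exact permutation test of such a ratio cannot give a two-sided p below 0.1, so ratios are given as values. The summed ORC level was 253, 285 and 244 TPM against 289 and 300.2 TPM. The exons of ORC4 overlap those of ACVR2A by 430 nt and those of MBD5 by 157 nt on the opposite strand. The strand setting of the counting is not given, so reads from the shared stretch, 4.82% and 1.76% of ORC4 exon length, cannot be assigned.

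The calls of these members were lost in most fits with 1 library left out, and calls over all genes were often lost with them. With all 5 libraries 5.68% of all genes were called lower. The share was 0.299% without sh-LINC00958 replicate 1, 8.72% without replicate 2 and 0.85% without replicate 3. ORC3 lost its call without any 1 of the 5 libraries, with limma adjusted p between 0.0505 and 0.205 and log2 fold changes between -0.32 and -0.37. ORC4 and GINS1 were still called without sh-LINC00958 replicate 2 (0.0452 and 0.0195). Without sh-LINC00958 replicate 1 they had adjusted p-values of 0.11 and 0.119, without sh-LINC00958 replicate 3 of 0.0766 and 0.0762, without sh-NC replicate 1 of 0.133 and 0.145, and without sh-NC replicate 2 of 0.190 and 0.172. Their folds kept their sign and stayed between -0.54 and -0.74. All 3 calls were also lost with no filter on low values (limma adjusted p of 0.0693 for ORC3, 0.0875 for ORC4 and 0.0856 for GINS1). In eBayes without trend they were lost too (0.0816, 0.0562 and 0.0594), and that of ORC3 with quantile normalization (0.0510). Of all genes, 0.763% were called lower with no filter and 3.04% in eBayes without trend.

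Licensing factors differed little. CDC6, an ATPase that helps load the ring, measured 57.9, 62.4 and 60.9 TPM against 64.8 and 65.0 TPM (log2 fold change -0.10, with a 95% interval of -0.29 to 0.087). CDT1, its loading partner, had overlapping groups at 32.3 to 34.5 TPM and 31.1 to 33.3 TPM (0.04, 95% interval -0.18 to 0.26). GMNN, the CDT1 inhibitor, measured 76.9, 76.2 and 76.6 TPM against 79.9 and 79.1 TPM (-0.05, 95% interval -0.23 to 0.12). The ratio of GMNN to CDT1 was 2.23, 2.34 and 2.37 in sh-LINC00958 and 2.57 and 2.38 in sh-NC, nearly touching. For each of these genes the interval excludes a 1.5-fold change in either direction.

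**Figure D2:**
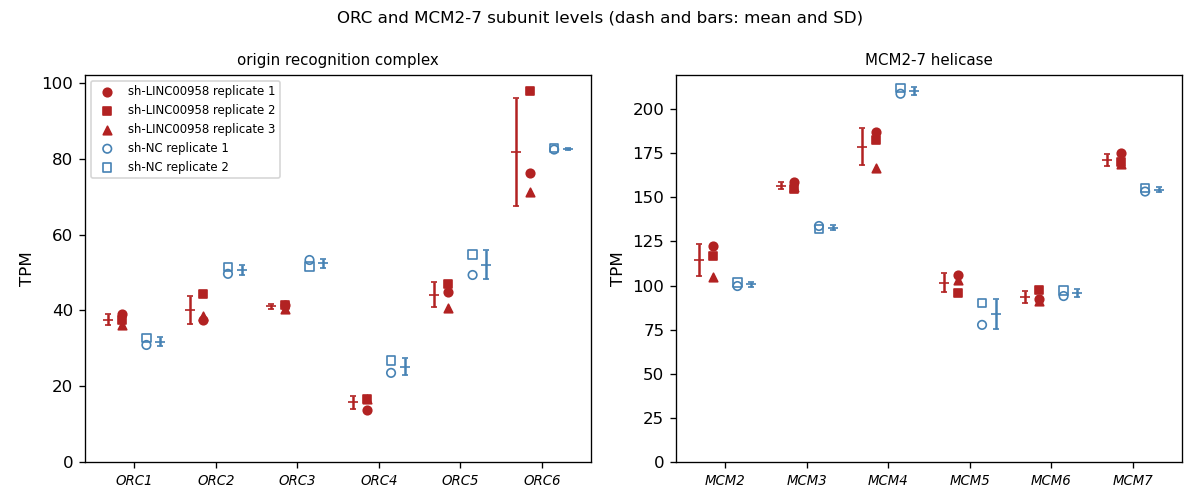
TPM of the ORC subunits (left) and MCM2-7 subunits (right) in each library, with the group mean and SD beside the points; red is sh-LINC00958 (n = 3) and blue is sh-NC (n = 2). ORC4 is lowest in its complex in every library, and MCM4 lies below its controls while MCM2, MCM3, MCM5 and MCM7 lie above theirs.

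None of the 6 MCM2-7 helicase genes passed. The groups of 5 of them did not overlap, against 49.9% of all genes tested. MCM4 measured 187, 182 and 167 TPM in sh-LINC00958 and 208 and 212 TPM in sh-NC (log2 fold change -0.24, with 95% limits of -0.43 to -0.044 and limma adjusted p = 0.109). MCM3, which sits beside MCM5 in the ring, measured 159, 155 and 156 TPM against 134 and 132 TPM (0.23, 95% interval 0.073 to 0.40, adjusted p = 0.0772). MCM3 had the smallest p of the complex. MCM5 measured 106, 95.7 and 103 TPM against 77.7 and 90.04 TPM (0.28, limma adjusted p = 0.122), MCM2 had a log2 fold change of 0.18 and MCM7 one of 0.15, all with sh-LINC00958 above sh-NC. MCM6 overlapped between groups, at means of 93.6 ± 3.32 (SD, n = 3) and 95.6 ± 2.19 TPM (SD, n = 2). The exons of MCM7 overlap those of AP4M1 by 392 nt on the opposite strand.

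The helicase subunits were nearer to each other in level in the silenced cells. With MCM4 below and MCM5 above its controls, this largely follows from the folds already given. The most abundant subunit exceeded the least abundant by 2.02, 1.90 and 1.85 times in sh-LINC00958 and by 2.68 and 2.35 times in sh-NC. In the controls MCM4 ranked first and MCM5 last. In sh-LINC00958 MCM4 ranked first in replicates 1 and 2 and MCM7 in replicate 3, while MCM5 and MCM6 shared the lowest ranks. By their means MCM5 and MCM6 exchanged places, at 102 and 93.6 TPM in sh-LINC00958 and 83.9 and 95.6 TPM in sh-NC. In sh-LINC00958 replicate 2 MCM5 stayed last, as in the controls, and over all 5 libraries their ranges overlapped. The summed level of the complex was 841, 816 and 790.01 TPM against 767 and 788 TPM.

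GINS1 was the only member of the helicase's partner complexes that fell. It encodes the PSF1 subunit of the 4-subunit GINS complex (chromosome 20, 25407727 to 25452628, plus strand). GINS1 measured 41.03, 48.0 and 37.5 TPM in sh-LINC00958 and 63.7 and 66.8 TPM in sh-NC, with a wide gap between the groups. Its log2 fold change was -0.62 ± 0.120 (SE, 95% interval -0.92 to -0.33, limma adjusted p = 0.0351). Its partners overlapped between groups, with log2 fold changes of -0.02 for GINS2 (95% interval -0.23 to 0.20) and -0.07 for GINS3 (-0.35 to 0.22). The ratio of GINS2 to GINS1 was 0.899, 0.742 and 1.01 in sh-LINC00958 and 0.563 and 0.579 in sh-NC. As GINS2 overlapped between groups, this ratio mostly restates the lower GINS1 level.

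GINS4 was unlike every other member in its spread. It measured 24.7, 25.7 and 10.2 TPM in sh-LINC00958 and 22.03 and 9.46 TPM in sh-NC, so that sh-LINC00958 replicate 3 and sh-NC replicate 2 stood low. The highest GINS4 library exceeded the lowest of its group by 2.52 and 2.33 times, and GINS4 was the only member above 1.5 times in either group. Its mean fold therefore describes neither group (log2 fold change 0.35, 95% interval -0.85 to 1.55). CDC45 (chromosome 22), which joins GINS on the ring, measured 96.1, 74.4 and 74.4 TPM against 66.1 and 71.4 TPM. All 3 values lay above the controls, and replicate 1 carried most of the difference (0.24, limma adjusted p = 0.292).

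The kinase that fires origins and its activator lay below the controls in every silenced library, without passing the test. CDC7 measured 39.02, 43.1 and 33.9 TPM in sh-LINC00958 and 53.3 and 56.9 TPM in sh-NC, with no overlap (log2 fold change -0.50 ± 0.120, SE, limma adjusted p = 0.0543). CDC7 did pass, lower, with median-ratio scaling (0.0411), with quantile normalization (0.0426), with a mean TPM of at least 5 (0.0438) and without sh-LINC00958 replicate 2 (0.0352), and in no other alternative. With the GC and length trend removed its fold was -0.24 (adjusted p = 0.142). DBF4 measured 14.8, 22.1 and 20.5 TPM against 31.4 and 26.7 TPM (-0.59, with 95% limits of -1.05 to -0.13 and limma adjusted p = 0.0989). Replicate 1 was the lowest for DBF4, and 142 nt of its exons overlap SLC25A40 on the opposite strand. TOPBP1, the most abundant firing factor, measured 79.0, 88.9 and 78.5 TPM against 86.3 and 102 TPM. TOPBP1 (-0.19), TICRR (-0.01) and MCM10 (0.09) had adjusted p-values from 0.282 to 0.974. The TOPBP1 and TICRR groups overlapped, and MCM10 lay just above its controls (37.3 to 38.6 against 33.6 and 37.26 TPM).

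**Figure D3:**
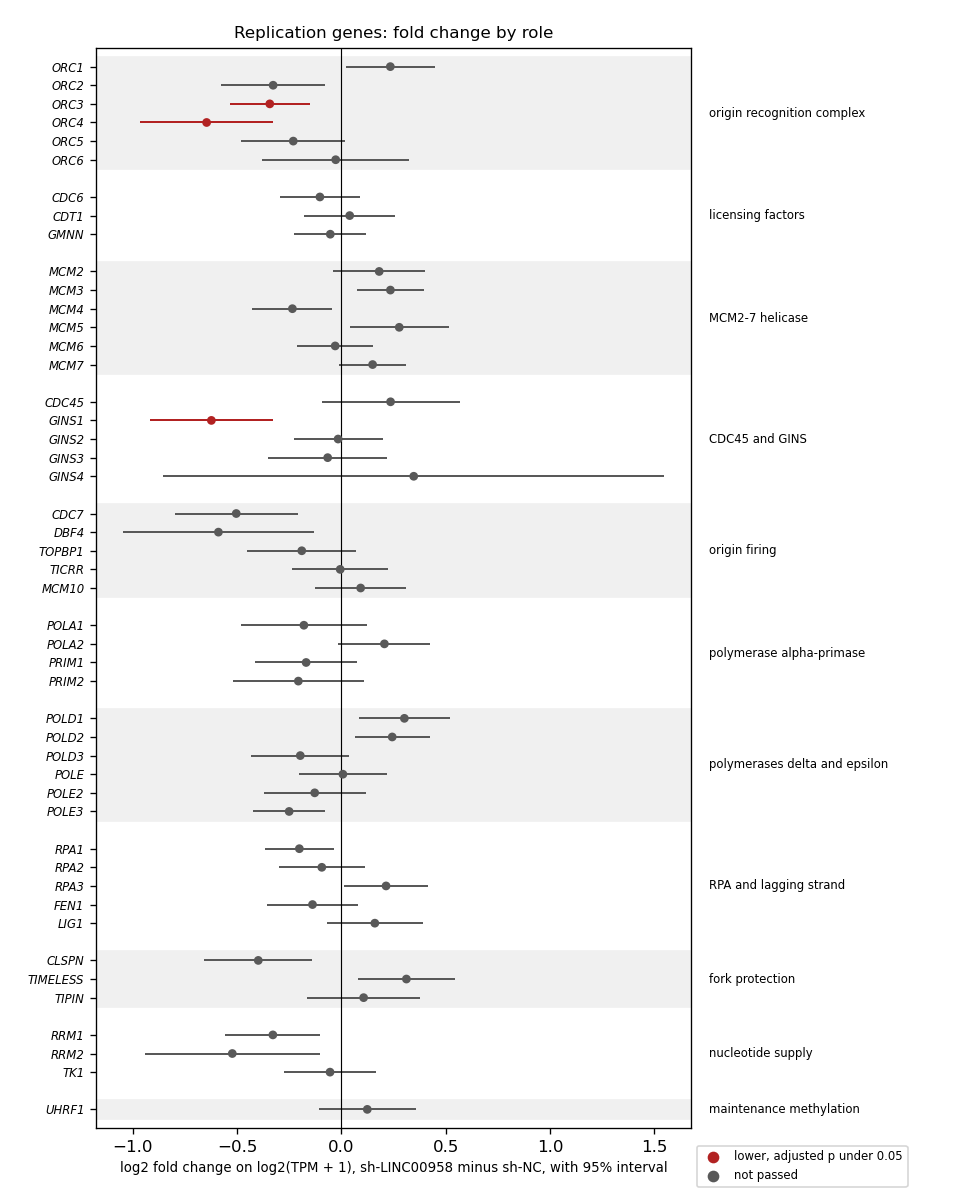
Log2 fold change of each replication gene on log2(TPM + 1), sh-LINC00958 minus sh-NC, as a point with its 95% interval from limma, grouped by role; red marks adjusted p under 0.05. ORC3, ORC4 and GINS1 are red, and the GINS4 interval, from -0.85 to 1.55, is the widest.

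Polymerase subunits split within their complexes, and none passed. In polymerase alpha-primase, which lays the RNA-DNA primer, POLA2 measured 44.9, 43.7 and 44.3 TPM against 36.03 and 40.7 TPM (log2 fold change 0.21, limma adjusted p = 0.185). The catalytic subunit POLA1 (-0.18), the primase subunit PRIM1 (-0.17) and its partner PRIM2 (-0.21) had negative folds, and of these only PRIM2 had groups that did not overlap. PRIM1, the most abundant of the set, measured 81.6, 97.3 and 83.9 TPM against 99.6 and 97.0 TPM (limma adjusted p = 0.304), with sh-LINC00958 replicate 2 level with the controls. In polymerase delta, the lagging strand enzyme, the accessory subunit POLD2 measured 258, 236 and 258 TPM against 210.4 and 213 TPM (0.24, with 95% limits of 0.063 to 0.42 and limma adjusted p = 0.0899). The catalytic POLD1 likewise had all 3 values above the controls, at 55.1, 53.7 and 60.6 TPM against 45.2 and 46.0 TPM (0.30, limma adjusted p = 0.0857). POLD3, another accessory subunit, lay below instead (-0.20), and the ratio of POLD2 to POLD3 was 5.97, 5.56 and 6.88 in sh-LINC00958 and 4.44 and 4.54 in sh-NC. With POLD2 above and POLD3 below its controls, that ratio had to separate the groups. In polymerase epsilon, the leading strand enzyme, the histone-fold subunit POLE3 measured 209, 222 and 204 TPM against 250.3 and 254 TPM (-0.25, limma adjusted p = 0.0775). The catalytic POLE (0.01, 95% interval -0.20 to 0.22) and POLE2 (-0.13, 95% interval -0.37 to 0.12) overlapped between groups. POLA2, PRIM1, POLD1 and POLD3 share exon stretches with other gene models on the same strand, as do RRM2, TIPIN and FEN1, so their values are less certain. For POLD3 the stretch is 123 nt of a lncRNA at a mean of 21.9 TPM, and for POLD1 it is 426 nt of a model listed at 0 TPM. The stretches of PRIM1 include 33 nt of NACA, which had a mean of 1178 TPM against 91.9 TPM for PRIM1.

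Single-strand binding and lagging strand genes were split as well. RPA1, the large subunit that coats unwound DNA, measured 118, 115 and 114 TPM against 134 and 132 TPM (log2 fold change -0.20, limma adjusted p = 0.111). RPA3, the small subunit, measured 53.6, 52.1 and 49.4 TPM against 44.02 and 44.8 TPM (0.21, adjusted p = 0.144), with all 3 values above. RPA2 (-0.09) overlapped. The flap nuclease gene FEN1 measured 125, 124 and 109 TPM against 128 and 134 TPM (-0.14, adjusted p = 0.341), and the ligase gene LIG1 had a fold of 0.16 with sh-LINC00958 above. FEN1 shares 166 nt with the abundant TMEM258 on the opposite strand and 49 nt with FADS2 on its own.

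CLSPN and TIMELESS lay on opposite sides of their controls, and no fork protection gene passed. CLSPN encodes claspin, the adaptor that carries the checkpoint signal from the fork to CHEK1. It measured 23.7, 24.9 and 21.03 TPM in sh-LINC00958 and 30.5 and 31.2 TPM in sh-NC (log2 fold change -0.40 ± 0.106, SE, limma adjusted p = 0.0682). TIMELESS, which holds the helicase and polymerase together with TIPIN, measured 65.6, 71.7 and 61.7 TPM against 51.9 and 54.5 TPM (0.31 ± 0.0940, SE, adjusted p = 0.0899). The ratio of CLSPN to TIMELESS was 0.361, 0.347 and 0.341 in sh-LINC00958 and 0.589 and 0.572 in sh-NC, with a gap between the groups far wider than the spread within either. Since CLSPN lay below and TIMELESS above its controls in every silenced library, this ratio had to separate the groups and adds no further result. TIPIN overlapped (0.11, 95% interval -0.16 to 0.38).

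Both ribonucleotide reductase genes lay below the controls. RRM1, the large subunit, measured 136, 156 and 132 TPM in sh-LINC00958 and 178 and 177 TPM in sh-NC (log2 fold change -0.33 ± 0.0930, SE, limma adjusted p = 0.0787). RRM2, the small subunit that is made in S phase, measured 133, 162 and 119 TPM against 171 and 227 TPM. The RRM2 controls differed by 1.33 times and sh-LINC00958 replicate 2 came close to the lower one (-0.52, 95% interval -0.94 to -0.10, adjusted p = 0.106). The ratio of RRM2 to RRM1 overlapped between groups. TK1, the salvage kinase for thymidine, overlapped too, at 119 to 129 TPM against 119.9 and 137 TPM (-0.05, 95% interval -0.27 to 0.16). The summed level of these genes was 398, 436 and 374 TPM against 469 and 541 TPM. UHRF1, which brings the maintenance methyltransferase to newly copied DNA, measured 56.1, 56.8 and 55.9 TPM against 55.8 and 47.7 TPM (0.12, limma adjusted p = 0.422), so that replicate 1 of sh-NC almost reached the silenced level.

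The silenced libraries were not equally far from the controls. Among the 18 members with sh-LINC00958 below, replicate 2 was the nearest to the controls in 12 and replicate 3 the farthest in 13. Among the 14 members above, replicate 3 was the nearest in 8 and replicate 1 the farthest in 8. Without sh-LINC00958 replicate 2, 6 members were called lower (ORC2, ORC4, GINS1, CDC7, POLE3 and RRM1) and 1 higher (POLD2), beside 8.72% and 5.30% of all genes. Without any other single library no member was called, at 0.0352% to 0.85% of all genes called lower.

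The fold changes of the members followed the GC content of their transcripts, as did those of all genes. Over the 47 members the fold and GC content correlated with Pearson's r of 0.65 and Spearman's rho of 0.69, and over 16999 tested genes with r of 0.43 and rho of 0.49, all from the same 5 libraries. Genes are not independent replicates, so no p is given. The tested genes were ranked by GC content into 4 bins of equal size. In the lowest bin (up to 43.0%), all 12 members had negative folds, with a median of -0.22, against a median of -0.29 over all 4250 genes there, of which 15.8% were called lower. ORC3 (39.4%) and ORC4 (37.6%) are among them. In the highest bin (from 56.4%), 8 of 9 members had positive folds, MCM2, MCM5, MCM7, POLD1 and POLD2 among them, with a median of 0.16 against 0.18 over all genes there. TK1 was the exception. In the bin from 43.0% to 48.9%, 11 of 14 members had negative folds, with a median of -0.15 against -0.057 over all genes there. In the bin from 48.9% to 56.4%, 7 of 12 had positive folds, with a median of 0.11 against 0.099.

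When the trend with GC content and exon length was removed from each library, GINS1 was the only member still called (log2 fold change -0.45, limma adjusted p = 0.0426), beside 2.61% of genes called lower. ORC3 went to -0.01 (adjusted p = 0.935) and ORC4 to -0.23 (0.318). The members' median was then -0.0016, and 13 of 47 folds changed sign. Of these, ORC5 (0.075), GMNN (0.17) and PRIM2 (0.16) had been below the controls in every silenced library and LIG1 (-0.0016) and UHRF1 (-0.026) above. The rest had overlapping groups (ORC6, CDT1, MCM6, TOPBP1, POLA1, PRIM1, POLE and POLE2, the last at 0.17 from -0.13). Of the 18 members with sh-LINC00958 below, 15 kept a negative sign, but several were then close to 0, with CDC6 at -0.012, ORC3 as above and ORC2 at -0.064 from -0.33. CDC7 went from -0.50 to -0.24, DBF4 from -0.59 to -0.29, RRM1 from -0.33 to -0.18 and CLSPN from -0.40 to -0.26. RRM2 (-0.45, adjusted p = 0.143), MCM4 (-0.25) and POLE3 (-0.24, adjusted p = 0.0692) moved by less than 0.1. Of the 14 above, 12 kept a positive one, from RPA3 at 0.34 (adjusted p = 0.0551) and TIMELESS at 0.26 down to values near 0. Of those with a GC content in the highest bin, MCM5 went from 0.28 to 0.12, POLD1 from 0.30 to 0.13, POLD2 from 0.24 to 0.075, MCM2 from 0.18 to 0.024 and MCM7 from 0.15 to 0.013. MCM3 went from 0.23 to 0.17 and ORC1 from 0.23 to 0.18. Some folds grew instead, such as those of RPA3 (from 0.21) and of TIPIN, which went from 0.11 to 0.25. FEN1 went from -0.14 to -0.27, and TK1 from -0.05 to -0.27 (limma adjusted p = 0.0944). The groups of TIPIN and TK1 had overlapped before removal. Whether the trend arose in the cells or in library preparation was not tested.

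**Figure D4:**
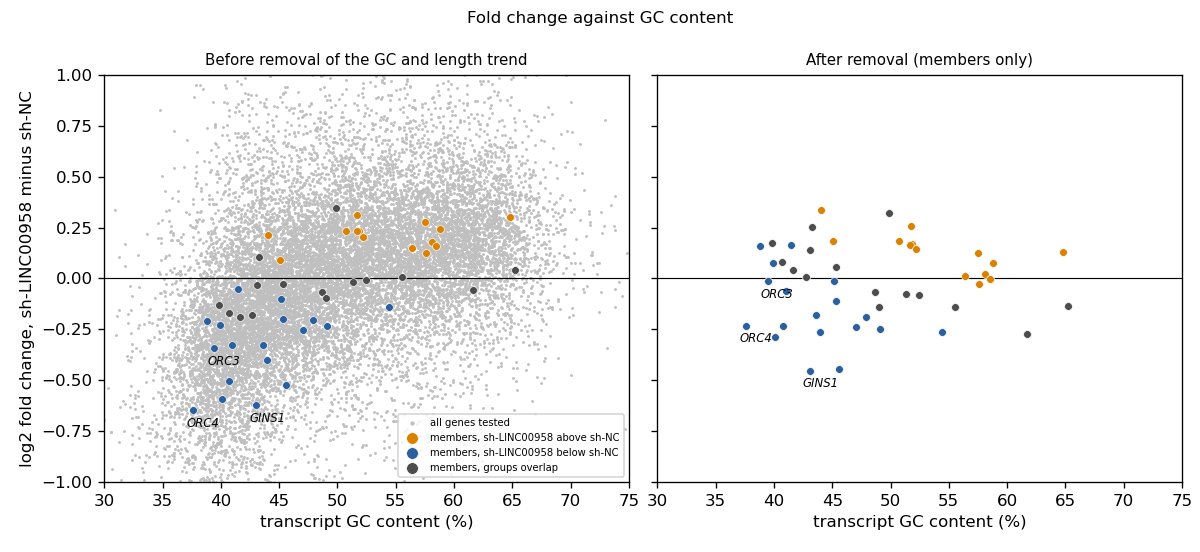
Log2 fold change (sh-LINC00958 minus sh-NC) against transcript GC content in percent, before (left, with all tested genes in grey) and after (right, members only) the trend was removed; genes beyond the ends of the axes are not drawn. ORC3 moves from -0.34 to -0.01 and ORC4 from -0.65 to -0.23, and GINS1 from -0.62 to -0.45.

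Of 66 other genes of the same pathway, 17 fell and none rose at an adjusted p of 0.05 in limma, and at an unadjusted p under 0.05 there were 28 with a negative and 6 with a positive fold. The 17 are 25.8% of the list, against 5.68% of all genes called lower, and whether this list and the members differ was not tested. The list was written with earlier results of these data known, RFC3 and the cyclins among them, so this share is a description. Of the 17, 13 belong to the lowest GC bin, as do 27 of the 66, and after removal of the trend 7 of the 17 were still called. The plot of the other replication genes shows them by role.

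The regulators of licensing and firing that fell were CCNE2 (log2 fold change -1.0), FBXO5 (-0.93), CCNA2 (-0.84), RIF1 (-0.52), CCNE1 (-0.42) and MCMBP (-0.40). CCNE1, CCNE2 and CCNA2 encode the cyclins that drive CDK2 at the start of and during S phase, and CDK2 itself did not pass (-0.06). FBXO5, also known as EMI1, holds back the ligase that degrades geminin and cyclin A, and measured 21.7, 27.6 and 19.7 TPM against 43.01 and 45.4 TPM. RIF1 restrains late origins, and MCMBP is a chaperone of MCM subunits. CCNE2 measured 24.5, 33.2 and 23.1 TPM against 58.0 and 50.6 TPM, and CCNA2 measured 94.6, 106 and 90.4 TPM against 167 and 181 TPM. In all 17 genes every silenced library was below both controls, against 25.5% of all genes tested. The 17 were picked by the fit to these same libraries, so their separation adds no further result. Their limma adjusted p ran from 0.00486 (RFC3) to 0.0407 (RIF1). Of the clamp loaders RFC3 (-1.66) and DSCC1 (-0.69) fell. RFC3 measured 22.9, 27.0 and 22.8 TPM against 75.6 and 81.8 TPM, a gap far wider than the spread within either group. The clamp PCNA overlapped between groups (-0.02, 95% interval -0.24 to 0.20).

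Among further fork enzymes the nuclease genes DNA2 (-0.56) and EXO1 (-0.63) and the topoisomerase gene TOP2A (-0.65) fell. The checkpoint kinase gene CHEK1, to which claspin relays, fell from a mean of 67.4 ± 1.90 (SD, n = 2) to 48.3 ± 3.26 TPM (SD, n = 3; log2 fold change -0.48, limma adjusted p = 0.0336). In nucleotide supply DCK, the deoxycytidine kinase (-1.11), CMPK1 (-0.73), RRM2B, the p53-inducible reductase subunit (-0.71), and the mitochondrial thymidine kinase gene TK2 (-0.64) fell, while TYMS (-0.04) did not pass. DCK measured 23.8, 34.4 and 23.0 TPM against 53.6 and 63.8 TPM, with replicate 2 the nearest to the controls. Of 7 chromatin assembly genes, the histone chaperone gene ASF1A (-0.58) alone fell in the fit as reported. Once the trend with GC content and length was taken out, 7 kept their calls with folds of -1.43 for RFC3, -0.71 for DCK (from -1.11), -0.70 for TK2, -0.64 for CCNA2, -0.49 for CCNE1, -0.47 for FBXO5 (from -0.93) and -0.29 for TOP2A (from -0.65). The 10 that lost theirs included CCNE2 (-0.62, adjusted p = 0.0535), DSCC1 (-0.50, 0.0526), CMPK1 (-0.49, 0.0543) and EXO1 (-0.47, 0.0564), just above the threshold. RRM2B (-0.38), CHEK1 (-0.27) and MCMBP (-0.25) had adjusted p-values of 0.0681 to 0.076, and DNA2 (-0.19), RIF1 (-0.15) and ASF1A (-0.14) of 0.226 to 0.253. ASF1B, another chromatin assembly gene, had not passed before (-0.27, limma adjusted p = 0.109). With the trend removed it was called lower (-0.46, limma adjusted p = 0.0473). Without sh-LINC00958 replicate 2 the number called lower was 16, beside 8.72% of all genes. Without sh-LINC00958 replicate 1 it was 1, beside 0.299%, and without sh-LINC00958 replicate 3 it was 2, beside 0.85%. Where 1 sh-NC library remained, few genes of this list or of all genes were called.

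**Figure D5:**
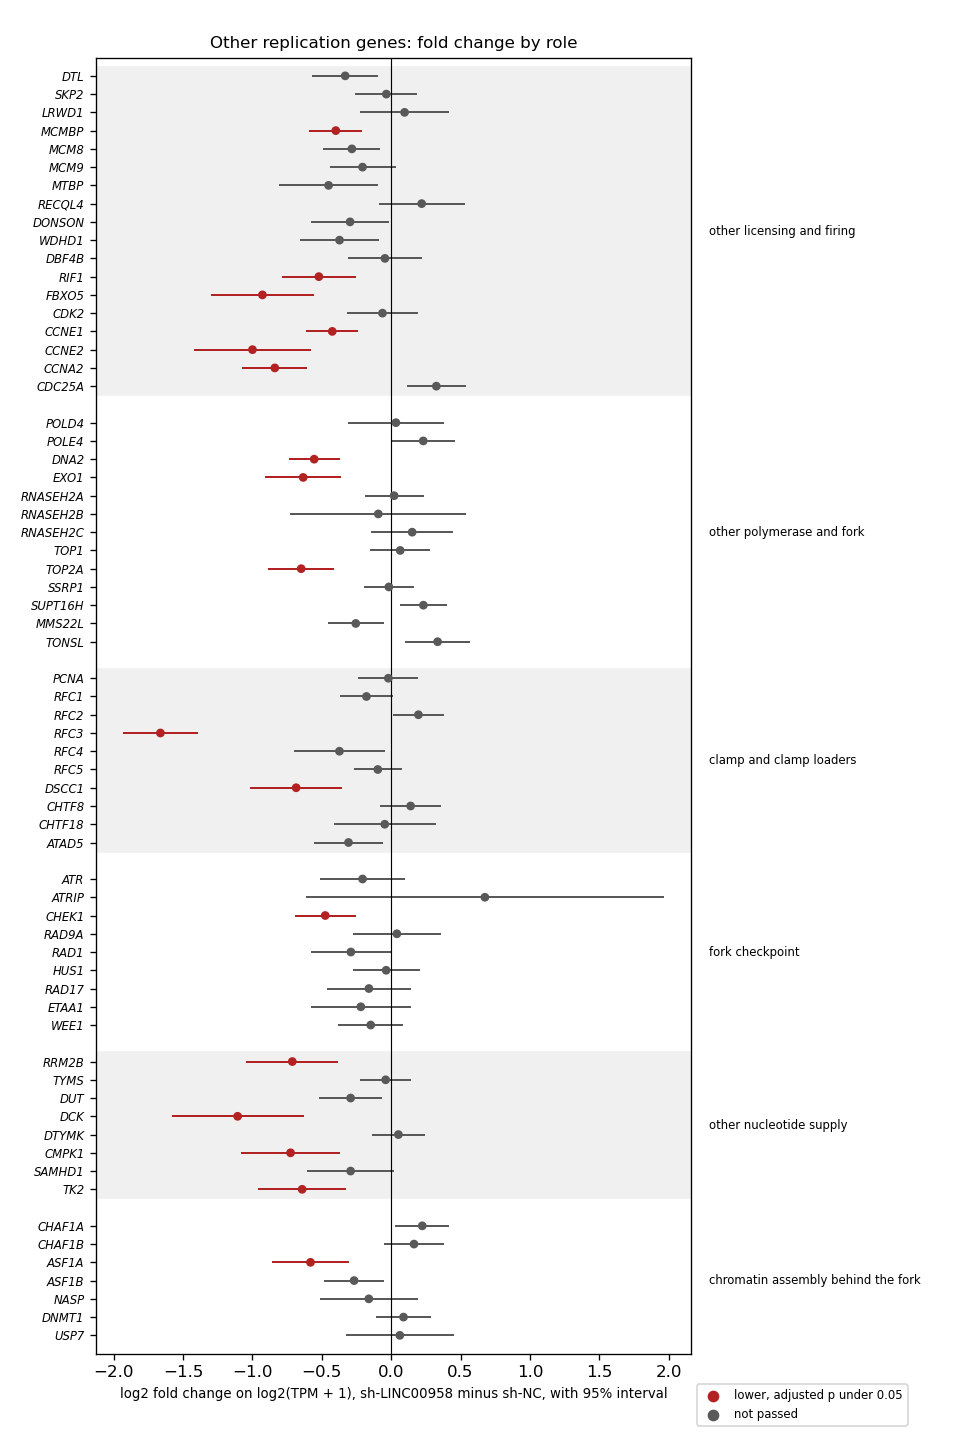
Log2 fold change of the other replication genes on log2(TPM + 1), all but 1 of the 66 drawn, sh-LINC00958 minus sh-NC, with 95% intervals from limma, by role; red marks the 17 called lower. RFC3, at -1.66, lies farthest to the left, and ATRIP has the widest interval.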

How the data were processed

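Expression was given in TPM for 58174 genes, deposited by the authors as 1 table with a column for each of the 5 libraries. Reads were handled with FastQC 0.11.2, Trimmomatic 0.36, HISAT2 2.0 and StringTie 1.3.3b on GRCh38, per the submitters' processing notes. For the annotation release and strandedness, nothing is stated in the labels or headers. TPM keeps no depth, so no counting interval was computed.

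From these values, log2(TPM + 1) was fitted with limma 3.58.1 (R 4.3.3, eBayes with trend) for the 17049 genes with a mean TPM of at least 1, with two-sided tests and Benjamini-Hochberg adjustment over all of them at 0.05. Fold changes on this scale understate those of low genes. The fit was tested on simulated data. GC content, exon length and coordinates came from GENCODE 29, in which all 47 members had the same symbol, and promoters from RefSeq (GRCh38.p14). The GC and length trend was removed per library with natural splines (5 degrees of freedom). Alternatives covered pseudocounts, filters, scaling, variance settings, the replicate block and leaving out each library.

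The genes named are LINC00958, members past the threshold and, in each role, the member with the smallest p and the one with the highest mean TPM, and of the other replication genes those past the threshold, most of these by fold alone. Further genes, such as ORC1, MCM5, GINS4, DBF4 and POLD1, were picked after their values were seen. The value of 1 gene among the other replication genes, which is in the counts, is not reported here. The members and lists were chosen with earlier results of these data known.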

Additional observations from a re-analysis of the deposited data

How the results depend on the processing

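Genes called in limma numbered 702 higher and 969 lower, of which 0 and 3 were members and 0 and 17 other replication genes. With no filter on low values these were 207 and 269 over all genes, with 0 members and 3 other replication genes lower. With eBayes without trend they were 371 and 518, with 0 members and 8 others lower. With quantile normalization 1 other gene, CDC25A, was called higher. With the GC and length trend removed they were 414 and 443, with 1 member lower, 8 others lower and 1 higher (SUPT16H), and the members' median was -0.00163.

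The replicate block left 0 higher and 2 lower over all genes, 0 members and 0 other replication genes lower, and LINC00958 at -0.92 (limma adjusted p = 0.104). The replicate block with the trend removed left 0 and 0, with 0 members and 0 others, a members' median of -0.0028 and LINC00958 at -0.96 (adjusted p = 0.131). The groups share only 2 replicate numbers. Replicate 3 is in sh-LINC00958 alone, so the block gives it its own term and the fold rests on the shared replicates. The members' median was -0.0507 with the replicate block and also without sh-LINC00958 replicate 3. Few degrees of freedom are left for the spread, so the lost calls cannot be read as an effect of pairing. Deviations of same-numbered libraries from their group means correlated at 0.0013 and 0.0497. The deviations of the 2 sh-NC libraries mirror each other, so these values cannot tell whether same-numbered libraries share a batch or culture.

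Leaving out 1 library gave 10 to 904 genes higher and 6 to 1486 lower, 0 to 1 members higher and 0 to 6 lower, 0 to 16 other replication genes lower, and LINC00958 between -1.09 and -0.89. LINC00958 missed the threshold without sh-LINC00958 replicate 1 (-1.02, limma adjusted p = 0.0545), sh-NC replicate 1 (-1.09, 0.0677) or sh-NC replicate 2 (-0.89, 0.0871). Where 1 sh-NC library remained, it was assumed to vary like the other group.

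With the trend removed 13 of 47 members' signs turned, among them those of ORC6 (0.0554), GMNN (0.17), TOPBP1 (0.0419), PRIM1 (0.0821) and UHRF1 (-0.0263), and with the block and trend together those of ORC6 (0.12), GMNN (0.13), TOPBP1 (0.0359), PRIM1 (0.0730) and UHRF1 (-0.0181). ORC6 also turned without sh-LINC00958 replicate 1 or 3, and ranged from -0.163 to 0.0640 with 1 library left out. The replicate block gave ORC6 the same fold as the fit without replicate 3 (0.0640), so it is not a separate alternative here. None of these genes passed the test in the fit as reported. The cause of these differences between fits was not tested. The unknown depth limits what can be said of precision.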
